A study of Mus musculus with 14 samples.

Results

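Immediate early genes are switched on within minutes of a stimulus, and 38 of them that respond to neuronal activity were followed here by name in a gene expression table of the mouse hippocampus. The table listed 55450 genes, and all 38 were among the 18059 that passed a filter of at least 0.5 FPKM (sequenced fragments scaled to transcript length and library size) in at least 3 libraries. The RNA came from female C57BL/6J mice aged 10 weeks. There were 3 WT libraries and 3 libraries from Δ3102 mice, in which the gene for the G protein-coupled estrogen receptor GPR30 is deleted in every cell. A further 4 libraries came from AG-KO mice (GPR30 fl/fl;GFAP-Cre), where Cre recombinase is driven by the promoter of an astrocyte gene, and 4 from NG-KO mice (GPR30 fl/fl;NSE-Cre), where it is driven by that of a neuronal gene. Both conditional lines carried a Cre transgene and floxed alleles that the WT mice did not, and floxed or Cre-only controls were not analysed here. Whether each library was made from 1 mouse, at what hour the tissue was taken, and whether the mice had been through behavioural tests is not given in the sources used here, so p-values measure only the spread between these libraries.

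Strong synaptic input raises calcium in neurons, and kinases then activate factors such as CREB and SRF that already sit on the promoters of these genes, so that no new protein is needed for their induction. One class of products is transcription factors, which go on to drive a second wave of genes. Others act at the synapse or feed back on the kinases. In the hippocampus Fos and Arc are widely used to mark recently active neurons.

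The members were grouped by the role of their product. AP-1 subunits and related bZIP factors made up 8 genes (Fos, Fosb, Fosl2, Jun, Junb, Jund, Atf3 and Maff), and zinc finger factors 7 (Egr1 to Egr4, Klf2, Klf4 and Klf6). A group of 9 held the bHLH-PAS factor Npas4, the orphan nuclear receptors Nr4a1, Nr4a2 and Nr4a3, the clock protein Per1, and the nuclear proteins Ier2, Ier5, Btg2 and Csrnp1. Synaptic and secreted effectors were 6 genes (Arc, Homer1, Nptx2, Plk2, Ptgs2 and Inhba). The remaining 8 act in signaling feedback and growth control (Dusp1, Dusp5, Dusp6, Sik1, Trib1, Gadd45b, Gadd45g and Tiparp).

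Promoter windows of 250 bases directly upstream of the annotated start (RefSeq, GRCm38.p6) were found for 31 of the 38 genes. They were searched on both strands for the half-site of the cAMP response element, TGACG or its reverse complement CGTCA, to which CREB binds. A half-site stood in the windows of 20 of the 31 genes, against 19.8% of the 27025 genes with a window. The windows of the immediate early genes were also richer in CG dinucleotides, with a median of 18.5 per window against 6.0 over all 32851 windows, and a half-site itself contains one. The full element TGACGTCA, which holds both half-sites, was found in 4 (Maff, Btg2, Plk2 and Dusp1; 1.77% of all genes). The EGR motif GCGGGGGCG was found in 5 (2.93%). The AP-1 site TGACTCA was found in 1 (5.16%) and the TATA box TATAAA in 5 (14.3%). The CArG box, CCWWWWWWGG with W for A or T, was found in 2 (1.62%). As examples picked by hand, the windows of Fos, Junb, Npas4, Nr4a1 and Dusp1 are shown 5′ to 3′ on the strand of the gene, with half-sites in capitals. Jun, an AP-1 subunit without an exact half-site in its window, is shown beside them for contrast. They lie at chr12:85473640-85473889 (plus strand), chr8:84978749-84978998 (minus), chr19:4989972-4990221 (minus), chr15:101266596-101266845 (plus), chr17:26508473-26508722 (minus) and chr4:95052223-95052472 (minus).
Fos: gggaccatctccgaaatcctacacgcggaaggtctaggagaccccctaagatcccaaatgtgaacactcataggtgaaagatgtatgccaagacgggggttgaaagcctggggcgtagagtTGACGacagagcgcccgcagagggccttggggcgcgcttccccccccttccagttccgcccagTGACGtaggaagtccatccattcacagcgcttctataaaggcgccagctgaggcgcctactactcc
Junb: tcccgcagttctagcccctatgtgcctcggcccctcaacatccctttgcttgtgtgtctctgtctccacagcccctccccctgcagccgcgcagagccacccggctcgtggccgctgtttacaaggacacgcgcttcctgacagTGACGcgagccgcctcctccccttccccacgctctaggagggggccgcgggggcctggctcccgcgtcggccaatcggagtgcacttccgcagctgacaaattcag
Npas4: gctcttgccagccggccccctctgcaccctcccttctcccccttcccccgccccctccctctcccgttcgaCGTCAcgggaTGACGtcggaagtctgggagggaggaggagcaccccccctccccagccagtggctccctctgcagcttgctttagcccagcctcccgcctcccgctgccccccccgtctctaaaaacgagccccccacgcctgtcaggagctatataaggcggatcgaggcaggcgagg
Nr4a1: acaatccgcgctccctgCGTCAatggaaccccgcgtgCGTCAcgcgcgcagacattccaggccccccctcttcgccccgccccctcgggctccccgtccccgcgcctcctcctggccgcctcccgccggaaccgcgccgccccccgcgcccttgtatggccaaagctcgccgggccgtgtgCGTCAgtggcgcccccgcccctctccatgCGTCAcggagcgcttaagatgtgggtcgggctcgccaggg
Dusp1: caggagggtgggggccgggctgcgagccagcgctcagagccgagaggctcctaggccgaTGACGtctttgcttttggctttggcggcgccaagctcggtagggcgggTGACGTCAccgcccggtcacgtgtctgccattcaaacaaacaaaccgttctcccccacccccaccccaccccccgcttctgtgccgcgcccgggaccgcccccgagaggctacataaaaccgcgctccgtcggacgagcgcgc
Jun: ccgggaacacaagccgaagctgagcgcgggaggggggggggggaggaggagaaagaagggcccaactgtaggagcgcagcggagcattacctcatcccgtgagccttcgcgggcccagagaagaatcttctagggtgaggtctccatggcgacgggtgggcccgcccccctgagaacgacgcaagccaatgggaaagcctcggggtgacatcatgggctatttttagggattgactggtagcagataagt
These letters say where a motif occurs and not whether a factor was bound, since only RNA was measured. A half-site stood at 2 positions in the window of Fos, 2 in Npas4, 4 in Nr4a1, 3 in Dusp1 and 1 in Junb.

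Total counts per library ran from 44527024 to 62669865. The 38 genes held between 0.120% (AG-KO replicate 4) and 0.225% (AG-KO replicate 2) of the counts. The levels of most were ample for counting, but Atf3 (18 to 202 counts per library) and Maff (18 to 132) were thin. The deletion of the receptor was visible in the Δ3102 libraries, where Gper1, the gene for GPR30, stood at 0.0686, 0.145 and 0.0124 FPKM against 0.797, 1.15 and 3.05 in WT. Gper1 stood between 0.540 and 1.41 FPKM in the 8 conditional knockout libraries, within the WT range or below it, and bulk tissue cannot show a loss in 1 cell type. The neuronal markers Rbfox3, Snap25, Syt1, Slc17a7, Prox1 and Gad1 were present in every library. In bulk RNA, fewer cells of a type and less RNA per cell cannot be told apart.

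AG-KO replicates 1 and 2 stood apart from the other 12 libraries in these genes. The main AG-KO counts and medians, and most genes described, are therefore given with and without them, a choice made after their values were seen. The split by promoter half-site, the related lists and some genes are given with them only. As the difference in log2 CPM (counts scaled to library size by TMM, with a prior count of 2) from the WT mean, the median over the 38 genes was 0.67 and 0.70 in these replicates. It was 0.17 in AG-KO replicate 3, -0.20 in AG-KO replicate 4 and between -0.08 and 0.18 in all libraries of the other genotypes. The same median over all tested genes stayed between -0.01 and 0.01. AG-KO replicate 1 was the highest of all 14 libraries for 12 of the 38 genes (8.39% of all tested genes), and replicate 2 for 19 (4.97%). Together they were the 2 highest for 18 genes (1.25% of all tested), among them Fos, Fosb, Junb, Egr1, Egr2, Egr4, Nr4a1, Arc, Nptx2, Dusp1, Dusp5 and Sik1. AG-KO replicate 4 was in contrast the lowest of 14 for 8 genes (9.11%).

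**Figure D1:**
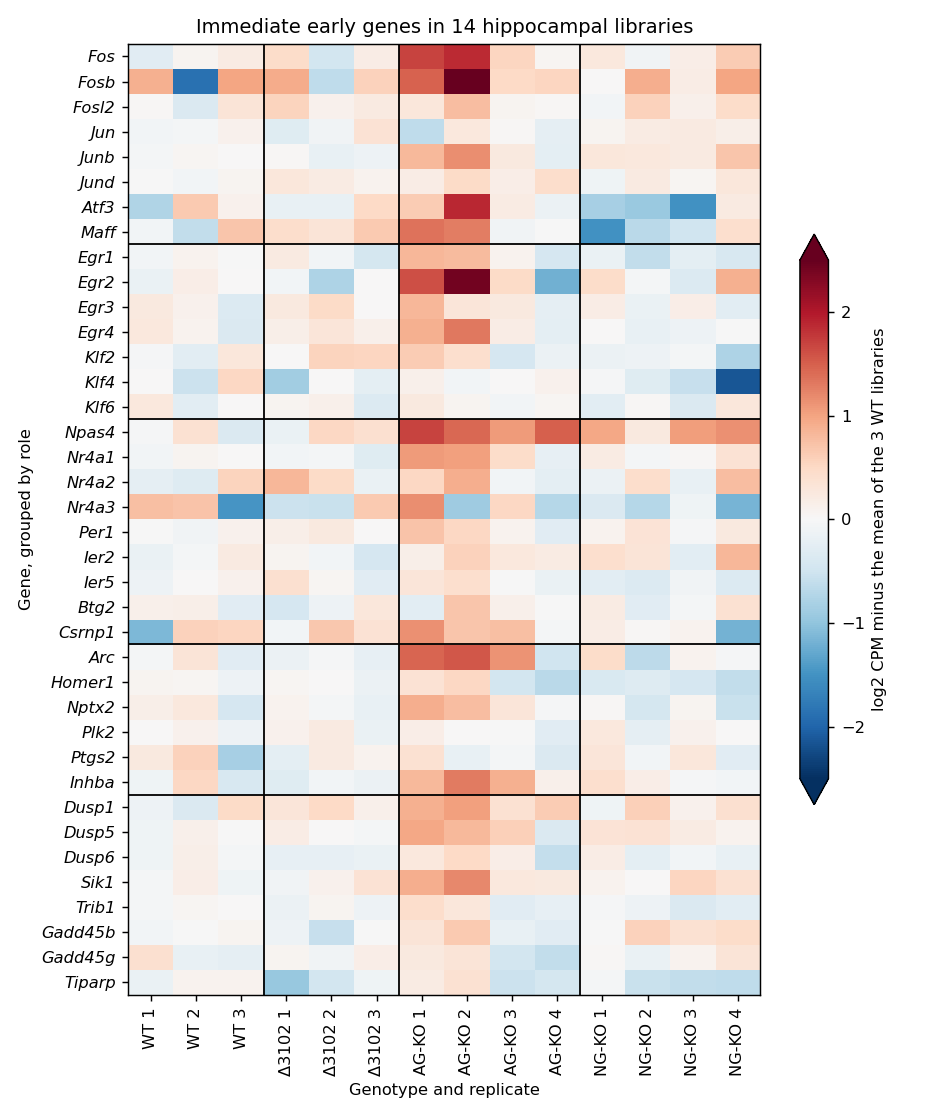
Each row is 1 of the 38 immediate early genes, grouped by role, each column 1 of the 14 libraries, and the colour is log2 CPM minus the mean of the 3 WT libraries. The columns of AG-KO replicates 1 and 2 are red for most genes (medians 0.67 and 0.70), those of replicates 3 and 4 are not (0.17 and -0.20), and the row of Npas4 is red in all 4.

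The spread among AG-KO libraries was accordingly wide. The median SD of log2 CPM over the 38 genes was 0.48 in AG-KO, against 0.28 in NG-KO, 0.25 in WT and 0.24 in Δ3102 libraries. Over all tested genes the AG-KO and NG-KO medians were 0.27 and 0.25. The SD was larger in AG-KO than in NG-KO for 29 of the 38 genes, against 53.1% of all tested genes.

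Other lists differed between these AG-KO libraries too. Glucocorticoid-response genes, such as Fkbp5 and Sgk1, summed to 465 and 388 FPKM in AG-KO replicates 1 and 2 and to 227 and 197 in replicates 3 and 4, with 291 to 445 in the other 10 libraries. Endothelial markers (Cldn5, Pecam1, Flt1, Kdr and Tek) summed to 29.1 and 29.9 FPKM in replicates 1 and 2 and to 38.1 and 43.8 in replicates 3 and 4. Their summed range was 28.7 to 35.9 in WT, 27.8 to 31.5 in Δ3102 and 24.1 to 27.7 in NG-KO libraries, and none of the 5 was at 0. At an unadjusted edgeR p under 0.05, 2 of 5 were higher in AG-KO than in WT, against 6.65% of all tested genes. Neuronal markers summed to 734, 707, 694 and 623 FPKM in AG-KO replicates 1 to 4, against 632 to 701 in WT. Red cell genes summed to 167 to 434 FPKM in AG-KO and 488 to 1125 in WT libraries. Markers of liver, muscle and testis varied widely within genotypes. Some were at the floor value, among them Alb and Ckm in both AG-KO replicates 3 and 4. Muscle markers summed to 78.1 and 157 FPKM in AG-KO replicates 1 and 2 and to 4.02 and 3.60 in replicates 3 and 4. They were also low in WT replicate 3 (16.2) and NG-KO replicate 4 (7.27). Sums of liver and testis markers did not split the AG-KO libraries into these pairs. The part of these differences in the results for the immediate early genes was not tested.

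**Figure D2:**
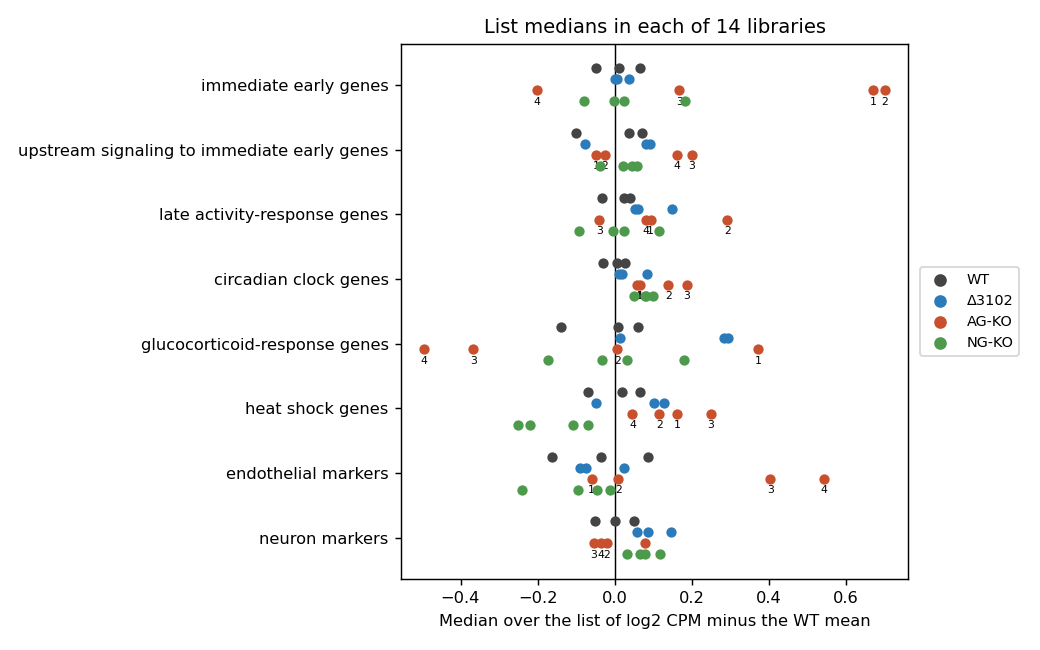
Each point is 1 library, and the horizontal axis is the median over a gene list of log2 CPM minus the WT mean, with the AG-KO replicates numbered. For the immediate early genes AG-KO replicates 1 and 2 lie at 0.67 and 0.70, to the right of the other 12 libraries, whereas for the endothelial markers it is replicates 3 and 4 that lie to the right, at 0.40 and 0.54.

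The first comparison asked whether deletion of GPR30 in astrocytes changed the level of immediate early genes. None of the 38 genes passed an adjusted p of 0.05 between AG-KO and WT by edgeR's quasi-likelihood test with Benjamini-Hochberg adjustment over all genes tested, where 4 of all tested genes did (0.0221%). At an unadjusted p under 0.05, 10 were higher and 0 lower, against 6.65% higher and 7.74% lower among all genes tested. These 10 were Fos, Junb, Jund, Npas4, Nr4a1, Arc, Inhba, Dusp1, Dusp5 and Sik1. The log2 fold change was above 0 for 31 of the 38 genes (48.2% of all tested), with a median of 0.31 against -0.01 over all tested genes. DESeq2 called 1 of the 38 at its adjusted p under 0.05, Npas4, against 2.22% of all tested genes. limma on log2(FPKM + 0.1) called 0, with 6 at an unadjusted p under 0.05 (all higher, against 5.17% of all tested genes).

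Those counts rested largely on AG-KO replicates 1 and 2. Without both, the median over the 38 genes was -0.03. The whole table then held more calls, with 1504 of all tested genes (8.33%) at an adjusted p under 0.05, and 2 of the 38 (5.26%), Npas4 and Homer1, were among them. At an unadjusted p under 0.05 there were 2 higher (Npas4 and Jund, against 9.83% of all tested) and 2 lower (Homer1 and Gadd45g, against 13.9%), both shares of the 38 below those of all tested genes. Leaving out single libraries gave between 6 higher (without WT replicate 3, 6.15% of all tested higher) and 17 higher (without AG-KO replicate 4, 5.49%). Without AG-KO replicate 1 or 2 the number was 7 in either case (7.59% and 7.97%), and without AG-KO replicate 3 it was 13 (5.13%).

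Npas4 was high in all 4 AG-KO libraries. Its product is a neuron-specific transcription factor that is induced by calcium entry and shapes inhibitory synapses. It stood at 5.86, 4.82, 3.57 and 4.8 FPKM in AG-KO libraries, against 1.73, 2.32 and 1.40 in WT, 1.58, 2.51 and 2.35 in Δ3102, and 3.43, 2.11, 3.67 and 3.96 in NG-KO libraries. The lowest AG-KO library was above the highest WT and Δ3102 library, while AG-KO and NG-KO libraries overlapped. The edgeR log2 fold change between AG-KO and WT was 1.41 ± 0.26 (SE; unadjusted p = 0.000112, adjusted p = 0.102), a 2.66-fold difference. DESeq2 gave the same size, 1.41 ± 0.27, with an adjusted p of 9.63e-05. An exact two-sided permutation test of the FPKM values gave p = 0.0571, the smallest that 4 against 3 libraries allow. Without AG-KO replicates 1 and 2 the log2 fold change was 1.27 ± 0.31 with an edgeR adjusted p of 0.0302, in a fit that called 8.33% of all tested genes, and over all alternatives that were run it ranged from 1.03 to 1.63 with adjusted p between 9.25e-05 and 0.275.

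Fos, the AP-1 subunit most often used as an activity marker, showed the more common pattern. It stood at 11.0, 12.4, 4.70 and 3.34 FPKM in AG-KO replicates 1 to 4, at 2.75, 3.52 and 3.96 in WT, at 4.64, 2.43 and 3.87 in Δ3102, and at 3.94, 3.16, 3.77 and 5.29 in NG-KO libraries. Replicates 1 and 2 were above all other libraries, and replicates 3 and 4 lay among the other genotypes. The log2 fold change between AG-KO and WT was 1.22 ± 0.39 by edgeR (adjusted p = 0.208), and it was 0.31 ± 0.30 (adjusted p = 0.588) without AG-KO replicates 1 and 2.

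Junb, a further AP-1 subunit, stood at 24.0, 30.2, 15.2 and 10.9 FPKM in AG-KO libraries, at 13.0, 13.9 and 13.7 in WT, at 13.8, 11.7 and 12.5 in Δ3102, and at 16.1, 16.2, 15.7 and 21.9 in NG-KO libraries. Its edgeR log2 fold change in AG-KO was 0.59 ± 0.25 (adjusted p = 0.317), and 0.01 ± 0.17 without replicates 1 and 2. Jund, the AP-1 subunit with a steady level in most tissues, stood at 36.5, 43.9, 33.8 and 41.2 FPKM in AG-KO against 31.2, 30.1 and 33.9 in WT, 38.5, 36.1 and 33.8 in Δ3102, and 28.9, 36.9, 32.7 and 38.8 in NG-KO libraries. The AG-KO difference of Jund was small, 0.32 ± 0.11 on the log2 scale (edgeR adjusted p = 0.226), and was 0.31 ± 0.13 without replicates 1 and 2.

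Fosb, a relative of Fos, varied widely within genotypes. It stood at 2.20, 5.30, 1.04 and 1.07 FPKM in AG-KO libraries, at 1.42, 0.203 and 1.56 in WT, at 1.49, 0.490 and 1.17 in Δ3102, and at 0.763, 1.45, 0.883 and 1.54 in NG-KO libraries. WT replicate 2 was the lowest and AG-KO replicate 2 the highest, and the edgeR log2 fold change between AG-KO and WT was 1.19 ± 0.69 (adjusted p = 0.445), and 0.06 ± 0.69 without AG-KO replicates 1 and 2. Jun, which unlike Fos is present at a high level without stimulation, stood at 21.1, 38.7, 31.6 and 26.2 FPKM in AG-KO and between 30.5 and 35.2 in WT libraries, with a log2 fold change of -0.10 ± 0.18 (adjusted p = 0.843). Atf3, a stress-induced bZIP factor, and Maff, a small Maf protein, had the highest values in AG-KO replicate 2 (1.71 FPKM) and AG-KO replicate 1 (0.908 FPKM). Their other values are given with the comparison to NG-KO libraries.

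Among the zinc finger factors none had an unadjusted p under 0.05 between AG-KO and WT, and the 7 log2 fold changes ran from -0.02 to 1.36. Egr1, which binds GC-rich promoters and is needed for lasting memory, stood at 46.4, 44.1, 26.1 and 18.3 FPKM in AG-KO libraries, at 24.2, 27.1 and 25.9 in WT, at 30.0, 24.1 and 19.1 in Δ3102, and at 22.6, 16.7, 21.6 and 19.5 in NG-KO libraries. The first 2 AG-KO libraries were again the highest of all and the fourth lay below WT, so that the log2 fold change was 0.41 ± 0.26 (edgeR adjusted p = 0.482), and -0.14 ± 0.20 without those 2. Egr2 had the largest fold change of the group, 1.36 ± 0.63 (adjusted p = 0.353), with 1.52, 2.60, 0.641 and 0.192 FPKM in AG-KO libraries against 0.420, 0.540 and 0.497 in WT. Without AG-KO replicates 1 and 2 the difference of Egr2 turned in sign, to -0.15 ± 0.53 (adjusted p = 0.907). The Krüppel-like factors Klf2, Klf4 and Klf6 gave 0.16, -0.02 and 0.06.

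Nr4a1, an orphan nuclear receptor, repeated the pattern of Fos. It stood at 24.6, 23.6, 15.2 and 9.61 FPKM in AG-KO libraries, at 10.9, 12.1 and 11.9 in WT, at 11.1, 11.1 and 9.46 in Δ3102, and at 13.1, 11.2, 11.7 and 15.0 in NG-KO libraries. The log2 fold change between AG-KO and WT was 0.67 ± 0.24 (edgeR adjusted p = 0.244), and 0.16 ± 0.18 without AG-KO replicates 1 and 2. Per1, a repressor in the circadian clock that also responds to CREB, stood at 19.5, 16.7, 11.9 and 9.16 FPKM in AG-KO, at 11.5, 11.0 and 12.8 in WT, at 13.1, 13.7 and 11.9 in Δ3102, and at 12.3, 14.8, 11.4 and 13.9 in NG-KO libraries, with 0.30 ± 0.19 between AG-KO and WT (adjusted p = 0.478) and -0.09 ± 0.14 without AG-KO replicates 1 and 2. Nr4a3, a relative of Nr4a1, varied widely within each genotype, for example from 3.12 to 14.2 FPKM in WT and from 4.62 to 19.4 in AG-KO libraries, and differed by -0.03 ± 0.57.

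Arc was the most variable of the synaptic effectors among AG-KO libraries in absolute level. Arc protein drives the removal of AMPA receptors from the membrane, and its mRNA travels to active dendrites. It stood at 71.6, 74.8, 53.3 and 17.3 FPKM in AG-KO libraries, at 24.7, 31.9 and 21.6 in WT, at 23.2, 24.9 and 22.4 in Δ3102, and at 34.5, 16.3, 27.2 and 25.2 in NG-KO libraries. AG-KO replicates 1 to 3 exceeded every library of the other genotypes, and AG-KO replicate 4 was below every WT library. The log2 fold change between AG-KO and WT was 1.07 ± 0.38 (edgeR adjusted p = 0.244), and 0.50 ± 0.40 (adjusted p = 0.502) without replicates 1 and 2.

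Inhba, which encodes a subunit of activin, stood at 0.948, 1.3, 0.937 and 0.549 FPKM in AG-KO libraries, at 0.485, 0.753 and 0.401 in WT, at 0.429, 0.494 and 0.476 in Δ3102, and at 0.695, 0.585, 0.514 and 0.5 in NG-KO libraries. Its log2 fold change in AG-KO was 0.79 ± 0.29 (edgeR adjusted p = 0.253), and 0.51 ± 0.32 without AG-KO replicates 1 and 2. Nptx2, a secreted pentraxin that gathers AMPA receptors, gave 0.51 ± 0.24 (adjusted p = 0.353), and 0.11 ± 0.23 without them. The kinase Plk2 and the prostaglandin synthase Ptgs2 did not follow, with -0.02 ± 0.13 and -0.13 ± 0.28.

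Homer1, a scaffold of the postsynaptic density, split the AG-KO libraries into a high and a low pair. It was singled out after its values were seen. It stood at 8.22 and 8.97 FPKM in AG-KO replicates 1 and 2 but at 4.38 and 3.77 in replicates 3 and 4, on either side of WT (6.58, 6.51 and 5.91). With all 4 libraries the log2 fold change was 0.02 ± 0.23 (edgeR adjusted p = 0.983), and without replicates 1 and 2 it was -0.57 ± 0.11 (adjusted p = 0.0129), again in the fit that called 8.33% of all tested genes. The gene-level value mixes the activity-induced short form with the constitutive long forms, which these counts do not separate.

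Of the genes that feed back on signaling, 3 of 8 had an unadjusted p under 0.05 between AG-KO and WT. All 3 were higher, against 6.65% higher among all tested genes. Dusp1 and Dusp5 encode phosphatases that switch off MAP kinases, and Sik1 a kinase that keeps CREB coactivators out of the nucleus. Dusp1 stood at 5.48, 5.96, 3.65 and 4.35 FPKM in AG-KO libraries, at 2.64, 2.27 and 4.16 in WT, at 3.61, 4.08 and 3.22 in Δ3102, and at 2.66, 4.40, 3.11 and 3.87 in NG-KO libraries, and differed between AG-KO and WT by 0.71 ± 0.23 (edgeR adjusted p = 0.209). Dusp5 stood at 15.1, 13.4, 11.0 and 5.64 FPKM in AG-KO, at 7.01, 8.31 and 7.65 in WT, at 8.68, 7.55 and 7.38 in Δ3102, and at 9.45, 9.77, 8.79 and 8.17 in NG-KO libraries, with 0.58 ± 0.23 (adjusted p = 0.284). Without AG-KO replicates 1 and 2 the difference was 0.48 ± 0.27 for Dusp1 and 0.19 ± 0.22 for Dusp5, and the unadjusted edgeR p was 0.102 and 0.420.

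Sik1 stood at 3.35, 4.03, 2.01 and 1.98 FPKM in AG-KO libraries, at 1.67, 1.96 and 1.64 in WT, at 1.65, 1.87 and 2.25 in Δ3102, and at 1.83, 1.74, 2.52 and 2.29 in NG-KO libraries. It and Npas4 were the only members whose 4 AG-KO libraries all lay above all 3 WT libraries in FPKM, 2 of 38 against 5.04% of all tested genes, and 0 of 38 lay below (8.3%). An exact two-sided permutation test gave Sik1 p = 0.0571 too. The margin was small for Sik1, with AG-KO replicate 4 at 1.98 and WT replicate 2 at 1.96. Its log2 fold change was 0.71 ± 0.24 (edgeR adjusted p = 0.214), and 0.25 ± 0.19 (adjusted p = 0.488) without AG-KO replicates 1 and 2. The others of the group, Dusp6, Trib1, Gadd45b, Gadd45g and Tiparp, lay between -0.10 and 0.18.

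**Figure D3:**
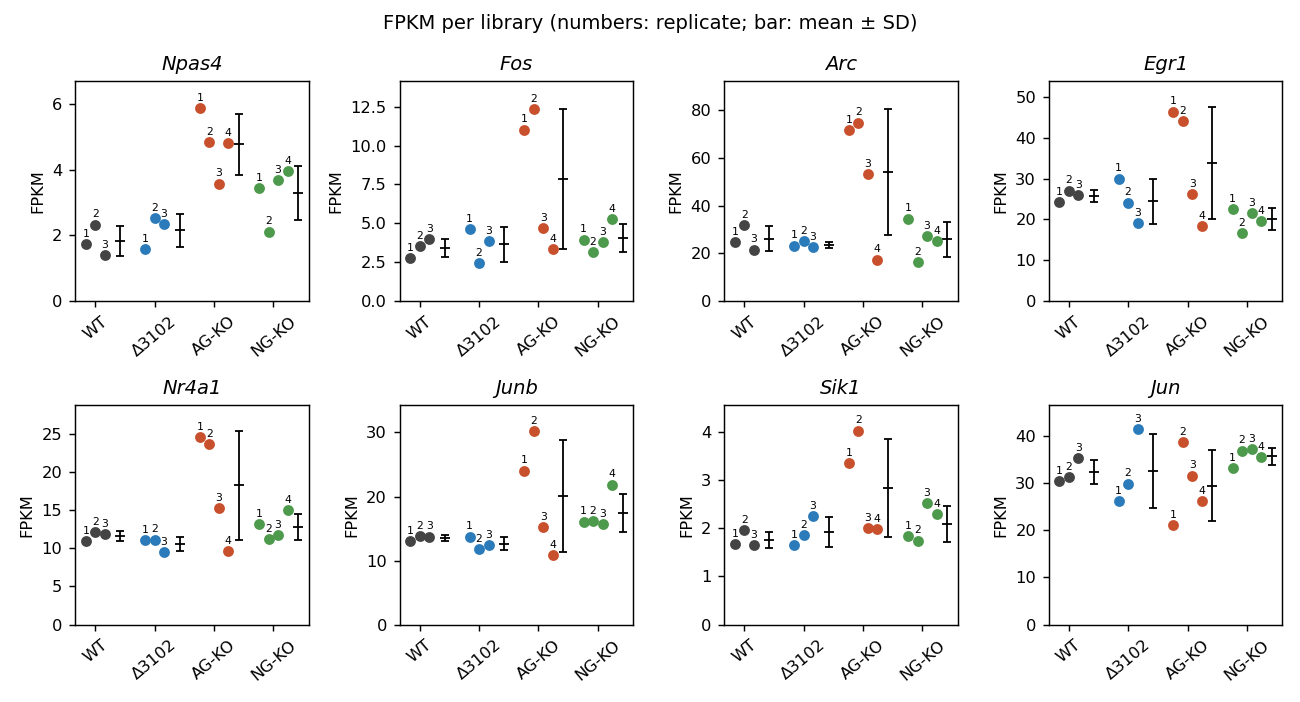
FPKM of 8 members in each library (points numbered by replicate), with the mean and SD of each genotype as a bar. Npas4 is higher in all 4 AG-KO libraries (3.57 to 5.86 against 1.40 to 2.32 in WT), whereas Fos, Arc, Egr1, Nr4a1 and Junb separate AG-KO replicates 1 and 2 from replicate 4, and Jun follows no genotype.

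AG-KO and NG-KO mice both carry floxed alleles and a Cre transgene, and they were set against each other. The transgenes differ (GFAP-Cre and NSE-Cre), so the cell type of the deletion cannot be told apart from other differences between the lines. None of the 38 genes passed an adjusted p of 0.05 by edgeR, where 20 of all tested genes did (0.111%). At an unadjusted p under 0.05, 12 were higher in AG-KO and 0 lower, against 7.3% higher and 6.84% lower among all tested genes. The log2 fold change was above 0 for 32 of 38 (48.6% of all tested), with a median of 0.42 against -0.01. DESeq2 called 3 of the 38 (2.52% of all tested): Arc (1.08 ± 0.32, adjusted p = 0.0390), Egr1 (0.75 ± 0.23, adjusted p = 0.0486) and Nptx2 (0.74 ± 0.23, adjusted p = 0.0485). limma called 0, with 8 at an unadjusted p under 0.05 (all higher, against 6.36% of all tested). In the same comparison 4 of 4 oligodendrocyte markers (188 to 358 FPKM summed in AG-KO, 119 to 189 in NG-KO) and 3 of 5 astrocyte markers (177 to 204 and 129 to 171) were higher in AG-KO at an unadjusted p under 0.05, none of them at 0, and the part of this was not tested.

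Here too the result followed AG-KO replicates 1 and 2. Without both, the median was -0.02 and 3 genes had an unadjusted p under 0.05, all lower in AG-KO (Junb, Gadd45b and Gadd45g), against 9.83% higher and 13.6% lower among all tested genes. At an adjusted p under 0.05 that fit called 8.22% of all tested genes and 0 of the 38. The number at an unadjusted p under 0.05 was 6 without AG-KO replicate 1 (15.6% of all tested). Without replicate 2 it was 4, with 3 higher and 1 lower (18.9%). It was 18 without replicate 3 (9.3%) and 21 without replicate 4 (10.2%), and 8 without NG-KO replicate 2 (11.9%). Without AG-KO replicate 4, Arc passed the edgeR test (1.37 ± 0.22, adjusted p = 0.0445). No member separated the 4 AG-KO from the 4 NG-KO libraries in FPKM in the higher direction (3.46% of all tested) or the lower one (3.31%).

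The edgeR log2 fold changes between AG-KO and NG-KO for the 12 genes ran from 0.41 to 1.54. Fos differed by 0.96 ± 0.36 (adjusted p = 0.257), Egr1 by 0.75 ± 0.24 (0.197 adjusted), Arc by 1.08 ± 0.35 (0.210 adjusted) and Npas4 by 0.55 ± 0.23 (0.304 adjusted). Without AG-KO replicates 1 and 2 these were 0.05 ± 0.28 for Fos, 0.20 ± 0.19 for Egr1, 0.51 ± 0.38 for Arc and 0.40 ± 0.29 for Npas4. Nr4a1 went from 0.52 ± 0.22 to 0.02 ± 0.17, Inhba from 0.71 ± 0.26 to 0.42 ± 0.30 and Dusp1 from 0.48 ± 0.21 to 0.25 ± 0.25. Nptx2 stood at 21.4, 19.2, 13.2 and 10.4 FPKM in AG-KO libraries, at 11.2, 8.24, 11.6 and 7.68 in NG-KO, at 12.2, 13.5 and 8.54 in WT, and at 11.8, 10.7 and 9.98 in Δ3102 libraries. It had the smallest edgeR p of the members here (0.73 ± 0.22, adjusted p = 0.182), and its difference was 0.34 ± 0.22 without AG-KO replicates 1 and 2.

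Some of these differences came with low values in NG-KO libraries. Atf3 stood at 0.235, 0.224, 0.143 and 0.525 FPKM in NG-KO libraries, at 0.713, 1.71, 0.494 and 0.380 in AG-KO, at 0.255, 0.707 and 0.487 in WT, and at 0.387, 0.384 and 0.640 in Δ3102 libraries, and differed between AG-KO and NG-KO by 1.54 ± 0.55 (edgeR adjusted p = 0.247). Maff stood at 0.108, 0.203, 0.234 and 0.460 FPKM in NG-KO libraries, at 0.908, 0.847, 0.300 and 0.322 in AG-KO, at 0.317, 0.214 and 0.560 in WT, and at 0.464, 0.422 and 0.543 in Δ3102 libraries, with a difference of 1.24 ± 0.51 (adjusted p = 0.292). Without AG-KO replicates 1 and 2 the differences were 0.68 ± 0.57 for Atf3 and 0.38 ± 0.56 for Maff. NG-KO replicate 4 was the only NG-KO library within the WT range of Atf3, and replicates 3 and 4 were within that of Maff.

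Egr4, a zinc finger factor of neurons, stood at 6.59, 8.69, 3.78 and 2.79 FPKM in AG-KO libraries, at 3.41, 3.04, 3.18 and 3.47 in NG-KO, at 4.14, 3.68 and 2.76 in WT, and at 3.88, 4.24 and 3.82 in Δ3102 libraries, and differed between AG-KO and NG-KO by 0.74 ± 0.28 (edgeR adjusted p = 0.257). Ier5, a nuclear protein of the serum and stress response, stood at 14.3, 15.1, 10.8 and 9.66 FPKM in AG-KO, at 9.34, 8.94, 10.6 and 9.01 in NG-KO, at 10.4, 11.5 and 12.4 in WT, and at 15.1, 11.7 and 9.39 in Δ3102 libraries, with 0.41 ± 0.15 (adjusted p = 0.261). For both, the AG-KO range reached down into that of NG-KO libraries, and without AG-KO replicates 1 and 2 the differences were 0.06 ± 0.20 for Egr4 and 0.17 ± 0.16 for Ier5.

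**Figure D4:**
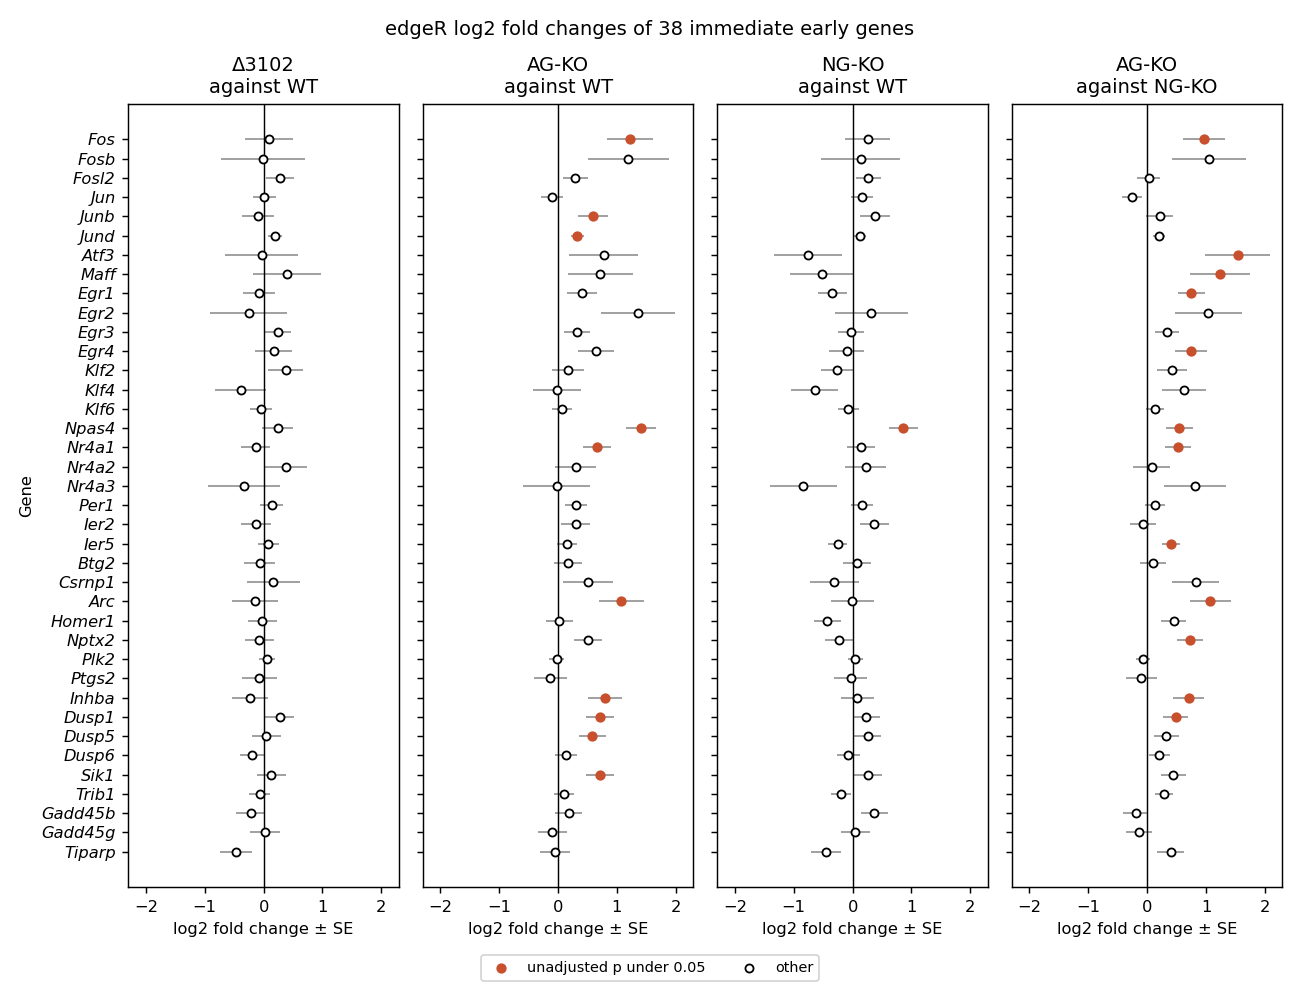
edgeR log2 fold changes with standard errors for all 38 genes in the 4 comparisons, with filled points at an unadjusted p under 0.05. The panels hold 0 (Δ3102 and WT), 10 (AG-KO and WT), 1 (NG-KO and WT) and 12 (AG-KO and NG-KO) filled points, all to the right of 0, and none passed after adjustment. The first 3 comparisons share the 3 WT libraries.

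No member passed the test between the global knockout and WT. By edgeR, 0 of 38 genes had an adjusted p under 0.05 (0.0111% of all tested) and 0 an unadjusted p under 0.05 (4.45%, with 2.18% higher and 2.27% lower). DESeq2 (0.183% of all tested) and limma called none. DESeq2 and limma had 0 at an unadjusted p under 0.05 as well (4.97% and 4.69% of all tested). The log2 fold change was above 0 for 18 of 38 (49.2% of all tested), with a median of -0.02 against -0.0037 over all tested genes, and the extremes were -0.47 ± 0.27 (Tiparp, an ADP-ribosyltransferase) and 0.39 ± 0.58 (Maff). Fos differed by 0.10 ± 0.41, Arc by -0.15 ± 0.40 and Npas4 by 0.24 ± 0.27. Dusp6, a phosphatase specific for ERK, was the only member whose groups did not overlap in FPKM, at 14.8, 14.6 and 15.4 against 15.8, 19.0 and 16.8 in WT (1 of 38 lower, against 6.13% of all tested genes, and 0 higher, against 5.4%), and its edgeR log2 fold change was -0.20 ± 0.21.

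Between NG-KO and WT, 0 of 38 genes passed an adjusted p of 0.05 by edgeR (0.072% of all tested), DESeq2 (0.914%) or limma. At an unadjusted p under 0.05 there was 1, Npas4, higher in NG-KO (4.33% of all tested were higher and 4.83% lower). limma and DESeq2 also had 1 (9.71% and 9.91% of all tested in either direction). The log2 fold change of Npas4 was 0.86 ± 0.25 (edgeR adjusted p = 0.338), and NG-KO replicate 2, at 2.11 FPKM, lay below WT replicate 2 at 2.32. The count was 2 or 3 when WT replicate 3, AG-KO replicate 2 or 4, or NG-KO replicate 1 or 3 was left out, with 8.84% to 10.8% of all tested genes called in those fits. In each of them 1 or 2 members were higher and 0 or 1 lower. Markers of cell types moved in the same comparison at an unadjusted p under 0.05, with 3 of 6 neuronal markers higher (715 to 748 FPKM summed in NG-KO, 632 to 701 in WT), 4 of 4 oligodendrocyte markers lower (119 to 189 and 203 to 466), 3 of 5 astrocyte markers lower (129 to 171 and 178 to 196) and 5 of 5 red cell genes lower (246 to 531 and 488 to 1125). Of the 6 neuronal markers 0 were lower at that p, but not all had higher values in NG-KO libraries. Rbfox3 stood at 30.8 to 34.8 FPKM in NG-KO and 33.7 to 38.8 in WT libraries. Prox1 stood at 4.13 to 9.11 FPKM in NG-KO and 8.43 to 11.5 in WT libraries. None of the markers of these cell types was at 0 in any library, and their part in the values of the immediate early genes was not tested. The median over the 38 genes was 0.05 against -0.02 over all tested genes, and 20 lay above 0 (47.5% of all tested).

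A few members of the NG-KO comparison did not overlap with WT. Junb lay above WT in all 4 libraries (1 of 38, against 4.2% of all tested genes), with 0.38 ± 0.25 by edgeR. Egr1 and Homer1 lay below WT in all 4 (2 of 38, against 6.66% of all tested), Homer1 with 4.78, 5.03, 4.68 and 4.13 FPKM and a log2 fold change of -0.43 ± 0.23 (adjusted p = 0.605), and Egr1 with -0.34 ± 0.25 (adjusted p = 0.741).

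For Npas4 the 3 comparisons with the shared WT libraries thus gave 0.24, 1.41 and 0.86 in Δ3102, AG-KO and NG-KO. By mean FPKM the order was AG-KO (4.76 ± 0.94, SD, n = 4), NG-KO (3.29 ± 0.82, n = 4), Δ3102 (2.15 ± 0.50, n = 3) and WT (1.82 ± 0.47, n = 3). Neighbours in this order overlapped.

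Genes upstream and downstream of the immediate early genes were checked in lists. Of 38 upstream genes, which encode NMDA receptor and calcium channel subunits, kinases, adenylyl cyclases, CREB, SRF, MEF2 and their partners, edgeR called 0 at an adjusted p under 0.05 in each comparison. At an unadjusted p under 0.05, 3 of 38 were higher and 1 lower between AG-KO and WT, against 6.65% higher and 7.74% lower among all tested genes. These were Srf (0.35 ± 0.13), Crebbp (0.48 ± 0.19) and Mapk3 (0.29 ± 0.13) higher and Camkk1 (-0.28 ± 0.12) lower, with adjusted p from 0.256 to 0.328. Between AG-KO and NG-KO there were 4 higher and 3 lower, against 7.3% higher and 6.84% lower among all tested genes. They were led by the calcium-dependent kinase gene Camk4 (-0.71 ± 0.15, adjusted p = 0.105), which DESeq2 called in this comparison and in NG-KO against WT.

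Late activity-response genes, such as Bdnf, Scg2 and Vgf, are the second wave. Of 20, edgeR called 0 at an adjusted p under 0.05 in each comparison. Between AG-KO and WT 3 had an unadjusted p under 0.05, all higher, against 6.65% higher among all tested genes. They were the neuroendocrine granule gene Ptprn (0.28 ± 0.09), the receptor gene Gpr3 (0.72 ± 0.27) and Mest (0.42 ± 0.18). The list median was 0.15 in that comparison, and DESeq2 called none there. Their summed level was 769 and 800.1 FPKM in AG-KO replicates 1 and 2, above the 649 to 746 of the other 12 libraries. A sum follows the most abundant genes. By the median over the list of log2 CPM minus the WT mean, only AG-KO replicate 2 (0.29) stood above all other libraries. AG-KO replicate 1 (0.093) lay below Δ3102 replicate 1 (0.15) and NG-KO replicate 2 (0.12).

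Among 14 other clock genes the unadjusted edgeR p was under 0.05 for 5 between NG-KO and WT, all higher, against 4.33% higher among all tested genes. They were led by Dbp (0.57 ± 0.13, adjusted p = 0.220), Nr1d1 (0.40 ± 0.12) and Ciart (0.84 ± 0.25). DESeq2 called Dbp. Their summed level was 185 to 215 FPKM in NG-KO libraries and 158 to 167 in WT. Between AG-KO and WT there was 1 higher (Cry2, 0.13 ± 0.06) and 1 lower (Bhlhe41, -0.23 ± 0.10), against 6.65% higher and 7.74% lower among all tested genes. Of 10 glucocorticoid-response genes none had an unadjusted p under 0.05 between AG-KO and WT. Of 8 heat shock genes 2 did, Hspa1b (0.67 ± 0.25) and Dnajb1 (0.32 ± 0.12). Both were higher, against 6.65% of all tested genes, and neither passed adjustment (0.256 and 0.261). Between AG-KO and NG-KO, 4 of the 8 heat shock genes were higher and 0 lower at an unadjusted p under 0.05, with a list median of 0.32. DESeq2 called Hspa5 there. Of the glucocorticoid-response genes 1 was higher and 2 lower, against 7.3% higher and 6.84% lower among all tested genes. Between NG-KO and WT, 2 heat shock genes were lower and 0 higher (4.83% and 4.33% of all tested).

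The members did not vary together to the same degree in all libraries. After centring each genotype on its own mean, Pearson's r with Fos over the 14 libraries was above 0.5 for 22 of the other 37 members (12.4% of all tested genes), with a median of 0.56. Over the 10 libraries of the other genotypes, without AG-KO, it was above 0.5 for 3 members (10.5% of all tested), with a median of 0.01. The libraries share depth and RNA quality as well as activity, so these values are descriptions only. The genes most like Fos over the 14 libraries were Junb (r = 0.92) and Egr2 (0.92), followed by Rabggtb, Tmem263, Fmc1, Rpl38-ps2, Ngdn, Zfp330, Zrsr2 and Rnf139 (0.92 to 0.89), none of which is a member. Egr2 and Junb had r of 0.79 and 0.73 over the 10 libraries without AG-KO.

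The members with a half-site in the promoter window had a higher median than those without it in the AG-KO comparisons. Between AG-KO and WT the median log2 fold change was 0.58 over the 20 genes with a half-site (-0.03 to 1.41) and 0.13 over the 11 without (-0.13 to 0.79). Between AG-KO and NG-KO the medians were 0.53 and 0.13. The ranges overlapped, no test was made, and Arc, Egr1, Nptx2, Sik1 and 3 others had no window. In the Δ3102 and NG-KO comparisons with WT the medians were 0.05 and -0.05, and 0.11 and 0.05. The split was not repeated without AG-KO replicates 1 and 2, so whether it holds in the other AG-KO libraries was not tested. Without these replicates the median over all members was -0.03 between AG-KO and WT and -0.02 between AG-KO and NG-KO.

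Counting could mix some members with a neighbour. An exon of 7 of the 38 genes (Jun, Junb, Jund, Csrnp1, Dusp1, Dusp5 and Tiparp) overlapped an exon of a gene on the opposite strand in the GENCODE vM21 annotation. The library kit marks strand, but whether the counting used it is not given in the sources used here, so values of these genes are uncertain to that extent.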

How the data were processed

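Poly(A) RNA-seq of hippocampus covered 14 libraries (3 WT, 3 Δ3102, 4 AG-KO, 4 NG-KO). The deposited table, made by the authors, holds FPKM and whole-number counts per gene. The submitters' processing notes name the build GRCm38 and, with no role or order, cutadapt 1.9, HISAT2 2.0.4, StringTie 1.3.4d, edgeR, DESeq2 and UMI-tools. Which of them made the counts, and with what strand setting, is not given in the sources used here. Genes with no signal hold a floor FPKM of 0.0001.

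Genes with FPKM of at least 0.5 in at least 3 libraries (18059 of 55450) were fitted with edgeR 4.0.16 (R 4.3.3; TMM, quasi-likelihood test, 1 mean per genotype over all 14 libraries, two-sided, Benjamini-Hochberg adjustment). Total counts were 44527024 to 62669865. No 2 libraries were identical. DESeq2 1.42.0 and limma 3.58.1 on log2(FPKM + pseudocount), other filters and scaling, a replicate block, fits of 2 groups and leaving out libraries were alternatives. DESeq2 was first run at its default filtering level of 0.1. The level was set to 0.05, the threshold used, after that result was seen, and both are given. Exact permutation tests used SciPy 1.17.1. Scripts were tested on simulated counts. The 38 genes, the other lists and the tests were chosen with earlier results of these data known. All members are accounted for. Other members named were chosen after their values were seen. Values in every library are given for Fos, Fosb, Junb, Egr1, Arc, Npas4, Nr4a1, Dusp1, Per1 and every member with an unadjusted edgeR p under 0.05 in any comparison. Genes of the related lists are named by smallest p, and the genes most like Fos by Pearson's r. Promoter windows and gene names came from RefSeq tables.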

Additional observations from a re-analysis of the deposited data

Results flagged for a closer look

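Among 76 sets of 4 values (38 genes in AG-KO and in NG-KO libraries), 4 held 1 library whose gap to the nearest other was a larger share of the range than Dixon's 95% critical value for 4 samples allows, where chance gives about 1 in 20. Junb in NG-KO replicate 4 stood at 21.9 FPKM, and the other 3 at 15.7 to 16.2. Ier2 in AG-KO replicate 2 stood at 4.23 FPKM, and the others at 3.15 to 3.26. Csrnp1 in NG-KO replicate 4 stood at 0.734 FPKM, below the 1.73 to 1.9 of the others. Tiparp in NG-KO replicate 1 stood at 3.18 FPKM, and the others at 2.19 to 2.25. AG-KO replicates 1 and 2 are not picked out in this way, since a gap between 2 high and 2 low values leaves neither alone.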

How the results depend on the processing

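The absence of members at an adjusted edgeR p under 0.05 held under other filters and scaling, limma, fits of 2 groups and the replicate block. For AG-KO against WT the count was 1 with DESeq2 at either filtering level and 2 without AG-KO replicates 1 and 2 (8.33% of all tested genes), and for AG-KO against NG-KO it was 3 with DESeq2, 2 at its default level, and 0 to 1 when single libraries were left out. The median of the members between AG-KO and NG-KO was -0.021 without AG-KO replicates 1 and 2. Leaving out 1 library gave medians of -0.029 to 0.072 (Δ3102 against WT), 0.22 to 0.47 (AG-KO against WT), -0.068 to 0.082 (NG-KO against WT) and 0.28 to 0.55 (AG-KO against NG-KO). At an unadjusted p under 0.05, fits of the 2 groups alone had 6 members between NG-KO and WT in place of 1 (9.25% of all tested). Of these 6, 2 were higher and 4 lower in NG-KO, against 4.5% higher and 4.75% lower among all tested genes. At the same threshold limma had 6 between AG-KO and WT in place of 10 (15.4%).

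Among the 18 genes with values in every library by rule, 48 of the alternative values turned in sign, and the cause was not tested. Between Δ3102 and WT, Atf3 was 0.10 with the replicate block, and 0.018 and 0.037 with limma at pseudocounts 0.1 and 0.01, where Fosb was 0.21 and 0.29 (0.035 at pseudocount 1). Between NG-KO and WT, Arc was 0.0023 with median-ratio scaling or DESeq2 at either level and 0.25 with the replicate block, which gave 0.059 for Egr4. Without AG-KO replicates 1 and 2, AG-KO against WT gave -0.075 for Atf3, -0.15 for Maff, -0.14 for Egr1, -0.039 for Egr4, -0.092 for Per1 and -0.088 for Ier5, and AG-KO against NG-KO gave -0.074 for Fosb, -0.36 for Junb, -0.26 for Per1, -0.066 for Dusp5 and -0.014 for Sik1.

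Ranges that crossed 0 when 1 library was left out were, between Δ3102 and WT, -0.11 to 0.32 for Fos, -0.50 to 0.36 for Fosb, -0.34 to 0.36 for Atf3, -0.24 to 0.082 for Egr1, -0.11 to 0.24 for Ier5, -0.27 to 0.030 for Arc, -0.25 to 0.067 for Nptx2, -0.41 to 0.078 for Inhba and -0.031 to 0.11 for Dusp5. Between NG-KO and WT they were -0.35 to 0.51 for Fosb, -0.25 to 0.043 for Egr4, -0.18 to 0.17 for Arc and -0.10 to 0.39 for Inhba. Between AG-KO and NG-KO they were -0.047 to 0.42 for Junb and -0.028 to 0.30 for Per1.

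The labels do not say whether same-numbered libraries belong together. The correlation of their deviations was over 0.1 in 6 of 19 pairs (-0.28 to 0.31). Differently numbered pairs were not set beside them, so these values cannot show whether the libraries were paired. With the replicate block, members at an unadjusted p under 0.05 were 0, 13, 2 and 9 in place of 0, 10, 1 and 12 (Δ3102, AG-KO and NG-KO against WT, and AG-KO against NG-KO), and 0 passed adjustment. In the same order, the shares of all tested genes were 4.05%, 11.1%, 7.05% and 13.3% in place of 4.45%, 14.4%, 9.16% and 14.1%. Counts of 18 to 202 per library limit Atf3 and Maff.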
